A study of Sus scrofa with 6 samples.

Results

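Respiratory complex I is the NADH dehydrogenase of the inner mitochondrial membrane, and its nuclear-encoded parts carry gene names that begin with NDUF. RNA of these genes was compared between brain tissue of wild boar and of the Rongchang pig, a Chinese domestic breed. The members were all genes of the protein-coding table whose Ensembl identifier matched a symbol starting with NDUF. They were 37 of the 21280 genes listed, of which 14821 had a symbol, and 36 of the 37 passed a filter on low values (TPM of 1 or more in 3 or more of the 6 libraries). Of the 37, 10 were NDUFA, 10 NDUFB, 1 NDUFC, 7 NDUFS, 2 NDUFV and 7 NDUFAF genes.

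The groups were 3 wild boar libraries labelled as brain and 3 Rongchang pig libraries labelled as cerebrum, in a series whose title names the prefrontal cortex. Every animal was a female of 2 years by its label, no treatment was named, and both groups were rRNA-depleted total RNA. The domestic pig libraries were re-analysed from an earlier deposit, so breed, source project and labelled tissue cannot be told apart. The labels number the libraries without stating separate animals, so p-values measure only the spread between these libraries.

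Complex I takes electrons from NADH and passes them to ubiquinone while it pumps protons, and it supplies much of the proton gradient on which neurons depend for ATP. It is L-shaped. A matrix arm holds the N module, where NADH is oxidised, and the Q module, where ubiquinone is reduced, and a membrane arm (the P module) pumps. The core subunits carry the catalysis and are encoded partly in mitochondrial DNA (the ND genes). The accessory subunits surround the core, and the assembly factors named NDUFAF help to build the complex without remaining in it.

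Levels are given as TPM, the abundance of a gene's transcripts corrected for their length and set against the sum over its library. The number of reads behind a TPM value cannot be recovered from it. The listed protein-coding genes summed to between 17.2% and 40.9% of 1000000 TPM per library, lowest in wild boar 2. Each library was therefore also rescaled by the median ratio of its genes to their geometric mean over libraries ("rescaled TPM"), with log2 factors from -0.79 in wild boar 2 to 0.52 in domestic pig 2. Over all 11752 genes tested, the log2 fold change, wild boar over domestic pig, had a median of -0.41 on deposited and 0.01 on rescaled TPM. Marker genes of neurons, astrocytes and oligodendrocytes were expressed in all libraries, with overlapping sums in the groups. On rescaled TPM the 7 neuron markers summed to 1723 to 2026 in wild boar, against 1665 to 2120.5 in domestic pig.

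The members' levels spanned a wide range. NDUFA4, which lies in complex IV by present placement although its name is that of a complex I subunit, had the highest mean, at 394 ± 187 deposited TPM in the wild boar libraries and 545 ± 131 in those of domestic pig (SD, n = 3 each). NDUFB1, a small membrane-arm subunit, followed at 414 ± 80.4 deposited TPM in the wild boar libraries and 418 ± 38.8 in those of domestic pig. The assembly factor NDUFAF8, which stabilises the assembly factor NDUFAF5, came next at 304 ± 26.5 deposited TPM in the wild boar libraries and 281 ± 42.6 in those of domestic pig. NDUFA4 and NDUFB1 were not separated by their spread, while the SD range of NDUFAF8 lay below that of NDUFB1 in both groups. NDUFA4, NDUFB1 and NDUFAF8 together made 43.2% of the members' summed TPM, as the mean over the 6 libraries. NDUFA4 also names a pseudogene in the Sscrofa11.1 RefSeq annotation, so its reads could be split between copies and its level is uncertain.

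In the middle of the range lay most subunits. In all, 7 members averaged at least 100 TPM and 6 averaged under 10. The low ones were NDUFA4L2, a relative of NDUFA4, and the assembly factors NDUFAF3, NDUFAF4, NDUFAF5, NDUFAF6 and NDUFAF7. NDUFAF4, the lowest member tested, was at 2.51 ± 1.16 deposited TPM in the wild boar libraries and 4.35 ± 1.10 in those of domestic pig (SD, n = 3 each). The highest tested member exceeded it 137-fold by the mean of 6 libraries. The core subunit NDUFV2, which carries an iron-sulfur cluster, was at 81.9 ± 27.2 deposited TPM in the wild boar libraries and 107 ± 30.4 in those of domestic pig. Its partner NDUFV1, which binds NADH and flavin mononucleotide, was lower, at 28.6 ± 10.9 deposited TPM in the wild boar libraries and 27.2 ± 6.57 in those of domestic pig.

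**Figure D1:**
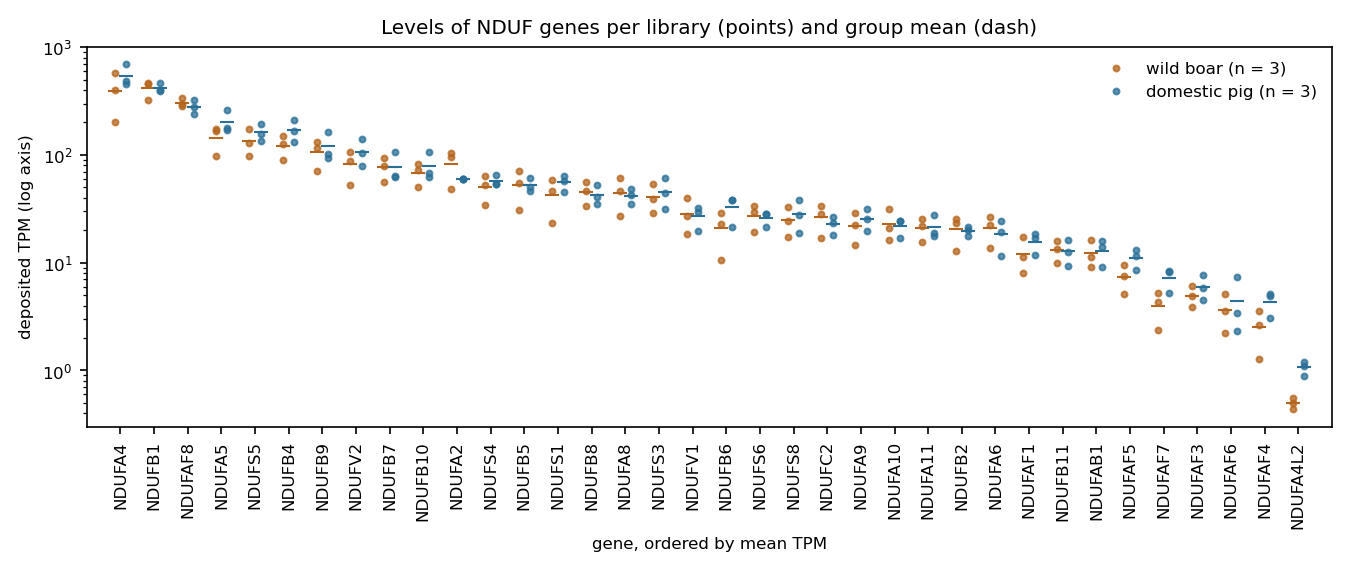
Deposited TPM (log axis) of NDUF genes, ordered by mean, with 1 point per library and a dash at the mean of each group, wild boar left and domestic pig right. NDUFA4, NDUFB1 and NDUFAF8 stand at the top, and NDUFA4L2 and most other NDUFAF genes at the bottom.

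On rescaled TPM 10 of the 36 tested members passed the threshold (an adjusted p under 0.05), all 10 higher in wild boar and 0 lower. Of all 11752 genes, 8.88% passed as higher and 10.7% as lower, 19.5% in either direction. An unadjusted p under 0.05 was found in 17 of the 36 members and in 36.8% of all genes. The 10 were the accessory subunits NDUFA2, NDUFA6, NDUFA8, NDUFA10, NDUFAB1, NDUFB8, NDUFB11, NDUFC2 and NDUFS6 and the core subunit NDUFV1. The median over the 36 members was 0.33, their range -0.33 to 0.88, and 31 lay above 0, against 51.5% of all genes. In 16 members every wild boar library exceeded every domestic pig library (19.6% of all genes), and in 2 tested members every wild boar library was lower (22.1% of all genes).

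On deposited TPM 0 of the 36 members passed by limma, and 0 had an unadjusted p under 0.05, where 1.6% and 17.8% of all genes did. Their median was -0.16, below 0 but above the -0.41 of all genes, and 11 of 36 were above 0, against 12% of all genes. Of all genes, 0.136% passed there as higher and 1.46% as lower. The 10 genes that passed on rescaled TPM were therefore higher relative to the other genes of the library, and 9 of them were also above 0 on deposited TPM, by 0.03 to 0.38, while NDUFAB1 was at -0.09. On that scale whole libraries moved together: wild boar 2 held the lowest deposited TPM in 34 of the 37 members. The SE of the fold changes there was 0.35 to 0.42, pooled almost wholly over genes of like level. On rescaled TPM domestic pig 2 was the lowest library in 28 of the 36 tested members. Without it the members' median was 0.22 and 9 passed.

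**Figure D2:**
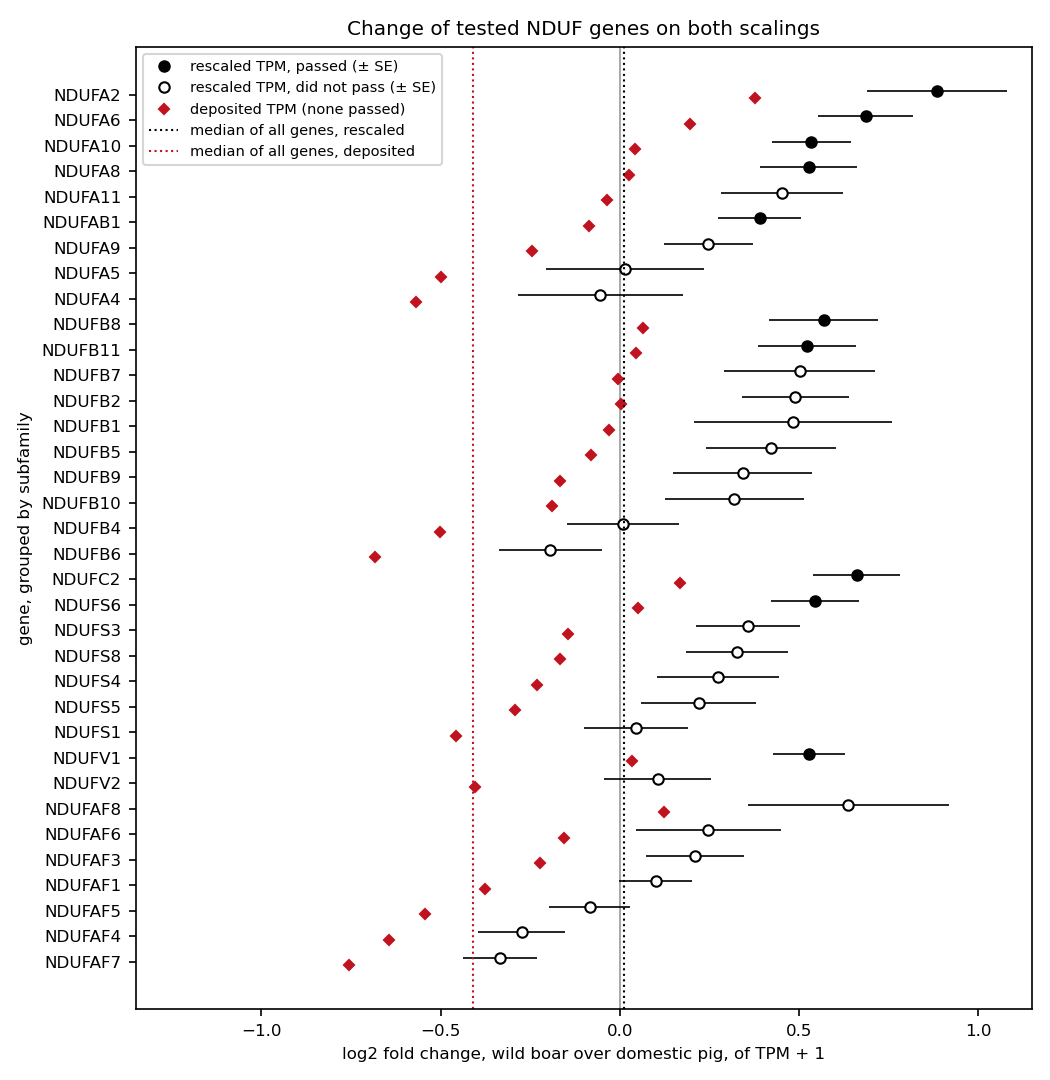
Log2 fold change of TPM + 1, wild boar over domestic pig, of tested NDUF genes, grouped by subfamily. Black circles with SE bars are on rescaled TPM (filled where the gene passed), red diamonds on deposited TPM, and dotted lines mark the median of all genes on each scale. On rescaled TPM most members lie above 0, and NDUFA4, NDUFB4, NDUFB6, NDUFAF4, NDUFAF5 and NDUFAF7 lie left of the dotted line on both scales.

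The N module, the tip of the matrix arm where NADH is oxidised, held 4 of the passing genes among its 7 tested members, with a median log2 fold change of 0.53 on rescaled TPM. The share of all genes passing as higher was 8.88%. NDUFV1 (ENSSSCG00000012896) had 31.0, 32.0 and 34.4 rescaled TPM in wild boar 1 to 3, against 22.6, 22.6 and 21.4 in domestic pig 1 to 3. The groups did not overlap and lay apart by more than the spread within either (log2 fold change 0.53, SE 0.10, limma adjusted p = 0.0132). NDUFA2 (ENSSSCG00000014371), an accessory subunit with a thioredoxin-like fold, had 108, 83.7 and 90.1 rescaled TPM in wild boar 1 to 3, against 68.1, 41.8 and 44.1 in domestic pig 1 to 3. It had the largest fold change of the 36 members, and its lowest wild boar library lay above domestic pig 1, the highest of the other group (log2 fold change 0.88, SE 0.20, limma adjusted p = 0.0201).

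NDUFA6 (ENSSSCG00000000045), which holds a copy of the mitochondrial acyl carrier protein on the matrix arm, had 25.6, 23.9 and 22.9 rescaled TPM in wild boar 1 to 3, against 13.1, 13.3 and 17.7 in domestic pig 1 to 3. Domestic pig 3 was the closest to the wild boar libraries, without reaching them (log2 fold change 0.69, SE 0.13, limma adjusted p = 0.0138). NDUFS6 (ENSSSCG00000017114), a zinc-binding subunit added late in assembly, had 33.4, 33.6 and 28.6 rescaled TPM in wild boar 1 to 3, against 24.4, 19.7 and 20.6 in domestic pig 1 to 3. All wild boar libraries were again higher (log2 fold change 0.54, SE 0.12, limma adjusted p = 0.0207).

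The other 3 tested N module genes did not pass. NDUFV2 had 98.8, 91.1 and 91.1 rescaled TPM in wild boar 1 to 3, against 89.8, 72.1 and 101 in domestic pig 1 to 3, with overlapping groups (log2 fold change 0.11, SE 0.15, limma adjusted p = 0.642). NDUFS1, the largest core subunit of the matrix arm, and NDUFS4, an accessory subunit known from Leigh syndrome, were at 0.05 (adjusted p = 0.847, limma) and 0.27 (adjusted p = 0.277). On deposited TPM NDUFV2, NDUFS1 and NDUFS4 were at -0.40, -0.46 and -0.23. The 2 NDUFV genes, partners in NADH oxidation, thus differed in whether they passed. The difference between their fold changes was not tested.

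In the Q module, where ubiquinone is reduced, 0 tested genes passed on rescaled TPM by limma and 2, NDUFS3 and NDUFS8, had an unadjusted p under 0.05, as 36.8% of all genes did. NDUFS3, a core subunit, was at 0.36, and its groups did not overlap. NDUFS8, the core subunit with iron-sulfur clusters next to the membrane, was at 0.33. NDUFA9, an accessory subunit near the ubiquinone site, was at 0.25, again without overlap. NDUFA5, an accessory subunit of the matrix arm, had 187, 169 and 148 rescaled TPM in wild boar 1 to 3, against 205, 117 and 189 in domestic pig 1 to 3, and its groups overlapped widely at a log2 fold change of 0.01 (SE 0.22).

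In the membrane arm 6 of 16 tested genes passed, all higher in wild boar, as 8.88% of all genes did. The 6 and the 16 include NDUFAB1, the acyl carrier protein, of which a copy also lies on the matrix arm. The median of these 16 on rescaled TPM was 0.47 (-0.03 on deposited TPM). NDUFC2 (ENSSSCG00000039494), an accessory subunit beside ND2 and the NDUFC gene analysed here, had 32.3, 29.5 and 28.7 rescaled TPM in wild boar 1 to 3, against 20.7, 16.2 and 19.4 in domestic pig 1 to 3. It had the lowest p of all members, and its groups lay well apart (log2 fold change 0.66, SE 0.12, limma adjusted p = 0.0116). NDUFA10 (ENSSSCG00000016349), a subunit of nucleoside-kinase fold on the matrix face, had 24.1, 28.2 and 27.3 rescaled TPM in wild boar 1 to 3, against 19.3, 16.8 and 17.8 in domestic pig 1 to 3. Its groups did not overlap (log2 fold change 0.53, SE 0.11, limma adjusted p = 0.0164).

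NDUFA8 (ENSSSCG00000005528), on the intermembrane-space face, had 52.5, 46.8 and 52.2 rescaled TPM in wild boar 1 to 3, against 40.2, 29.4 and 35.2 in domestic pig 1 to 3. Domestic pig 2 was its lowest library (log2 fold change 0.53, SE 0.14, limma adjusted p = 0.0313). NDUFB8 (ENSSSCG00000006166), a membrane-arm subunit often used as a protein marker of assembled complex I, had 52.8, 58.4 and 47.7 rescaled TPM in wild boar 1 to 3, against 39.9, 28.5 and 38.5 in domestic pig 1 to 3. Here too domestic pig 2 was the lowest and the groups were apart (log2 fold change 0.57, SE 0.15, limma adjusted p = 0.0360).

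NDUFB11 (ENSSSCG00000034487), a single-span membrane subunit, had 15.3, 17.3 and 13.6 rescaled TPM in wild boar 1 to 3, against 10.5, 8.80 and 11.9 in domestic pig 1 to 3. The gap between domestic pig 3 and wild boar 3 was small against the groups' difference (log2 fold change 0.52, SE 0.14, limma adjusted p = 0.0333). NDUFAB1 (ENSSSCG00000010795), the acyl carrier protein, which also serves mitochondrial fatty acid synthesis, had 12.7, 15.7 and 14.0 rescaled TPM in wild boar 1 to 3, against 10.3, 9.72 and 11.5 in domestic pig 1 to 3. It passed by a narrow margin (log2 fold change 0.39, SE 0.12, limma adjusted p = 0.0486).

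**Figure D3:**
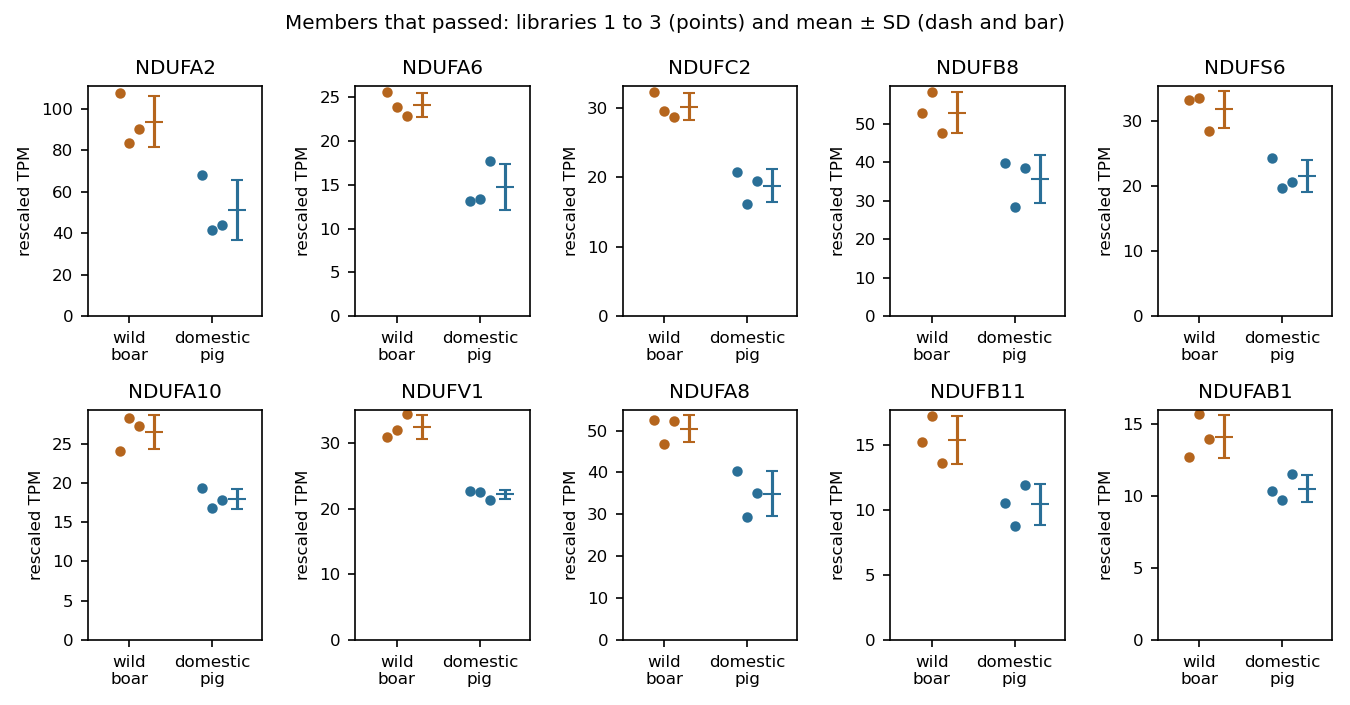
Rescaled TPM (linear axes from 0) of the 10 NDUF genes that passed, ordered by fold change, with points for libraries 1 to 3 and a dash with bar for mean ± SD, wild boar left and domestic pig right. In all 10 panels the 3 wild boar points lie above the 3 domestic pig points, from 93.8 ± 12.3 against 51.3 ± 14.6 for NDUFA2 to 14.1 ± 1.5 against 10.5 ± 0.925 for NDUFAB1. On deposited TPM none of the 10 passed.

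Among the membrane-arm genes that did not pass, NDUFB1 had 517, 557 and 399 rescaled TPM in wild boar 1 to 3, against 527, 273 and 290.0 in domestic pig 1 to 3. Domestic pig 1 lay among the wild boar libraries, while domestic pig 2 and 3 were lower (log2 fold change 0.48, SE 0.28, limma adjusted p = 0.237). NDUFS5, a subunit of the intermembrane-space face, had 148, 169 and 151 rescaled TPM in wild boar 1 to 3, against 152, 109.6 and 142 in domestic pig 1 to 3, with overlap (log2 fold change 0.22, SE 0.16, limma adjusted p = 0.350). NDUFB2 just missed the threshold, at 0.49 with a limma adjusted p of 0.0514 and no overlap between groups. NDUFB7 and NDUFA11 were at 0.50 and 0.45, also without overlap. NDUFB5, NDUFB9 and NDUFB10 were at 0.42, 0.34 and 0.32 with overlap, and NDUFB4 was at 0.01. NDUFB6 was the only tested membrane-arm gene below 0 on rescaled TPM, at -0.19 (limma adjusted p = 0.358), and on deposited TPM it was at -0.68. NDUFA4, outside the modules, had 458, 350.2 and 495 rescaled TPM in wild boar 1 to 3, against 514, 341 and 506 in domestic pig 1 to 3, and its groups overlapped fully (log2 fold change -0.05, SE 0.23, limma adjusted p = 0.890).

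The passing subunits depended unequally on single libraries, although none changed direction on rescaled TPM when a library was left out. NDUFC2 passed without any 1 of the 6 libraries, with limma adjusted p from 0.0148 to 0.0414. NDUFA6 missed the threshold without domestic pig 1 (0.0511), and NDUFV1 without wild boar 3 (0.0510). NDUFA10 missed it without wild boar 2 (0.0569) or wild boar 3 (0.0565). NDUFA2 missed it without domestic pig 3, wild boar 1 or wild boar 3 (0.0536, 0.0606 and 0.0529), and NDUFS6 without domestic pig 3, wild boar 1 or wild boar 2 (0.0554, 0.0661 and 0.0693). NDUFA8 passed only without domestic pig 1 or domestic pig 2, and was otherwise at 0.0619 to 0.0893. NDUFB8 passed only without domestic pig 2, NDUFB11 only without domestic pig 3 and NDUFAB1 in none of the 6 fits, with highest adjusted p of 0.108, 0.106 and 0.145, each without wild boar 2. The number of passing members was 4, 4 and 3 without wild boar 1, 2 and 3, and 7, 9 and 6 without domestic pig 1, 2 and 3. The share of all genes passing fell too, from 19.5% to 9.1%, 6.64% and 7.38% without wild boar 1, 2 and 3. Without domestic pig 1, 2 and 3 it was 6.86%, 19% and 12.3%.

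Of the 7 assembly factors named NDUFAF, all tested, 0 passed by limma in either direction and 1 had an unadjusted p under 0.05, against 36.8% of all genes. Their median was 0.10 on rescaled and -0.38 on deposited TPM, beside 0.39 and -0.09 for the 29 tested genes without the suffix AF. NDUFAF7, a mitochondrial methyltransferase, had 4.91, 4.11 and 4.50 rescaled TPM in wild boar 1 to 3, against 5.97, 5.81 and 6.01 in domestic pig 1 to 3. All its wild boar libraries were lower, at an adjusted p just over the threshold (log2 fold change -0.33, SE 0.10, limma adjusted p = 0.0543). It passed as lower when libraries were scaled to equal nuclear protein-coding sums, an alternative added after seeing the data.

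NDUFAF4, which acts early with NDUFAF3 around the Q module, had 3.02, 2.23 and 3.09 rescaled TPM in wild boar 1 to 3, against 3.52, 3.54 and 3.56 in domestic pig 1 to 3, also without overlap (log2 fold change -0.27, SE 0.12, limma adjusted p = 0.140). NDUFAF3 itself was at 0.21 with overlap. NDUFAF8 had 334, 492 and 287 rescaled TPM in wild boar 1 to 3, against 318, 166 and 236 in domestic pig 1 to 3. Wild boar 2 and domestic pig 2 stood apart within their groups, and the groups overlapped (log2 fold change 0.64, SE 0.28, limma adjusted p = 0.136). NDUFAF5, a hydroxylase that acts on NDUFS7 and is the partner of NDUFAF8, was at -0.08. NDUFAF1, of the complex that builds the ND2 part of the membrane arm, was at 0.10, and NDUFAF6 at 0.25, with domestic pig 2 the highest of all libraries for NDUFAF6. Without domestic pig 2 NDUFAF6 passed as higher by limma, and no other NDUFAF gene passed in the 6 fits that left out a library.

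Ratios within a library do not depend on the scaling between libraries. The geometric mean of the 30 NDUF genes without the suffix AF, over that of the 7 NDUFAF genes, was 4.77, 4.59 and 4.49 in wild boar 1 to 3, against 4.09, 3.30 and 4.11 in domestic pig 1 to 3. All wild boar ratios were above all domestic pig ratios, and the lowest was in domestic pig 2. Without NDUFAF8 the ratio was 8.52, 8.72 and 7.84 in wild boar 1 to 3, against 7.24, 5.32 and 6.99 in domestic pig 1 to 3, again without overlap. The N module over the P module gave 0.949, 0.858 and 0.948 in wild boar 1 to 3, against 0.871, 0.933 and 0.860 in domestic pig 1 to 3, and these groups overlapped. The Q module over the P module gave 1.01, 1.00 and 1.03 in wild boar 1 to 3, against 1.05, 1.09 and 1.25 in domestic pig 1 to 3, with every wild boar ratio below every domestic pig ratio. How often ratios of gene sets separate the groups in these data was not counted. Among single genes on rescaled TPM, 19.6% had every wild boar library higher and 22.1% every wild boar library lower. The ratios to NDUFAF genes include NDUFA4 and the low NDUFA4L2 among the 30 genes. These ratios were not tested further.

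NDUFA4L2, described in other tissues as induced by low oxygen, did not pass the filter on low values. It had 0.499, 0.437 and 0.559 deposited TPM in wild boar 1 to 3, against 0.895, 1.11 and 1.20 in domestic pig 1 to 3. The domestic pig libraries were all higher, near a level of 1 TPM, and no test was made.

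**Figure D4:**
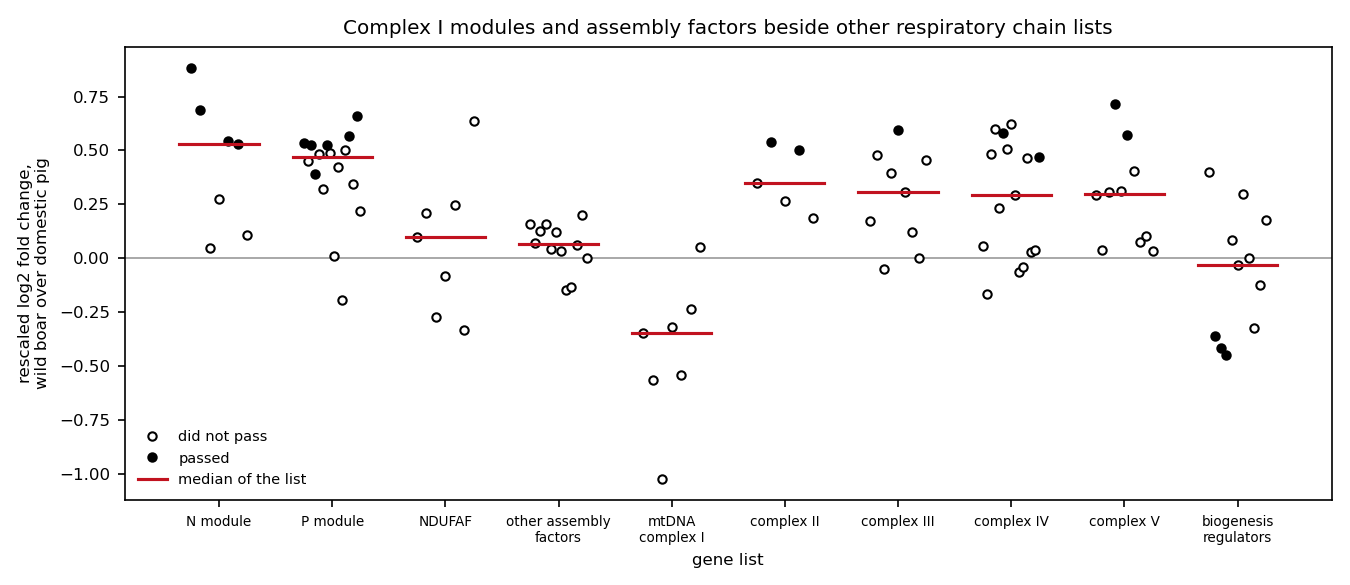
Rescaled log2 fold change, wild boar over domestic pig, of single genes (circles, filled where they passed) in the N and P modules of complex I, the NDUFAF genes and other fixed lists of the respiratory chain, with the median of each list as a red line. The N and P modules have the highest medians, at 0.53 and 0.47, and the mtDNA-encoded complex I genes the lowest, at -0.35. On deposited TPM these 3 medians are 0.03, -0.03 and -0.86.

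Complex I assembly factors with other names were tested beside the members. Of 12 such genes 0 passed by limma, and 0 had an unadjusted p under 0.05, on rescaled TPM, against the 36.8% of all genes. Their median was 0.06 on rescaled and -0.37 on deposited TPM. ECSIT and ACAD9, which work with NDUFAF1, were at 0.16 and 0.16, and TIMMDC1, which builds the ND1 part of the membrane arm, was at -0.15.

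Of the 7 complex I genes encoded in mitochondrial DNA, 0 passed on rescaled TPM by limma and 0 had an unadjusted p under 0.05, with a median of -0.35. Among all genes 19.5% passed on rescaled TPM and 36.8% had an unadjusted p under 0.05. On deposited TPM the median of the 7 was -0.86, all 7 were below 0, 5 had an unadjusted p under 0.05, and ND3, a small core subunit of the membrane arm, passed as lower (-1.54, limma adjusted p = 0.00173). On that scale only 12% of all genes were above 0, 17.8% had an unadjusted p under 0.05 and 1.46% passed as lower. The median of all genes there was -0.41. The NDUF genes without the suffix AF, NDUFA4 and NDUFA4L2 included, were also set against the 7 ND genes. The ratio of their geometric means was 0.0839, 0.0383 and 0.0534 in wild boar 1 to 3, against 0.0478, 0.0231 and 0.0314 in domestic pig 1 to 3, with overlap between the groups.

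Nuclear genes of the other respiratory complexes resembled complex I in their medians on rescaled TPM, at 0.35 for complex II (2 of 5 passing), 0.31 for III (1 of 9), 0.29 for IV (2 of 15) and 0.30 for V (2 of 10). Among all genes tested, 8.88% passed as higher and 10.7% as lower. All 7 passing genes of complexes II to V were higher in wild boar. They were SDHAF2 (0.54), an assembly factor of complex II, SDHC (0.50), a membrane anchor of complex II, UQCR11 (0.60) of complex III, COX5B (0.58) and the assembly factor SURF1 (0.47) of complex IV, and ATP5MC3 (0.57) and the inhibitor ATP5IF1 (0.71) of complex V. On deposited TPM the medians were -0.14 for complex II, -0.20 for III, -0.22 for IV and -0.21 for V, and 0 of their genes passed by limma or had an unadjusted p under 0.05. Among all genes 1.6% passed there and 17.8% had an unadjusted p under 0.05. No difference between the complexes was tested.

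Of 11 tested regulators of mitochondrial biogenesis, 3 passed on rescaled TPM, all lower in wild boar, and the list's median was -0.03. The share of all genes passing as lower was 10.7%. NRF1, a transcription factor of respiratory chain genes, had 4.14, 4.04 and 3.51 rescaled TPM in wild boar 1 to 3, against 4.93, 6.59 and 5.60 in domestic pig 1 to 3. Its groups did not overlap (log2 fold change -0.45, SE 0.13, limma adjusted p = 0.0398). GABPA, the DNA-binding subunit of the factor also called NRF2, had 5.24, 5.05 and 6.0 rescaled TPM in wild boar 1 to 3, against 7.55, 7.17 and 6.99 in domestic pig 1 to 3 (log2 fold change -0.36, SE 0.11, limma adjusted p = 0.0458).

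GABPB1, the activating partner of GABPA, had 1.80, 1.74 and 1.99 rescaled TPM in wild boar 1 to 3, against 2.68, 2.86 and 2.84 in domestic pig 1 to 3 (log2 fold change -0.41, SE 0.10, limma adjusted p = 0.0261). PPARGC1A, the coactivator PGC-1α, was at -0.03, and the mitochondrial transcription factor TFAM at -0.33 (limma adjusted p = 0.0830). ESRRA, a nuclear receptor of the same programme, was at 0.40 (limma adjusted p = 0.146). On deposited TPM NRF1, GABPA and GABPB1 were at -0.87, -0.79 and -0.76 without passing. Without 1 library NRF1 and GABPA passed in none of 6 fits (limma adjusted p 0.0551 to 0.120 and 0.0592 to 0.133), and GABPB1 passed only without domestic pig 2. Of the 7 genes of complexes II to V, SDHAF2, SURF1 and ATP5MC3 passed in 3 of the 6 fits, UQCR11 in 2, SDHC in 1 and COX5B and ATP5IF1 in 0, with no change of direction.

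The summed rescaled TPM of the 4 endothelial markers was 21.8 to 33.8 in wild boar, against 14.1 to 15.7 in domestic pig, that of the 9 mural cell and fibroblast markers 78.4 to 101 in wild boar, against 65.2 to 76.5 in domestic pig, and that of the 4 red blood cell markers 448 to 1319 in wild boar, against 85.6 to 227 in domestic pig. All 3 sums were higher in every wild boar library, and 1 of 4, 2 of 9 and 4 of 4 genes passed as higher, as 8.88% of all genes did. On deposited TPM the red blood cell sums were 522 to 760.2 in wild boar, against 123 to 312 in domestic pig, the endothelial sums 17.3 to 39.3 in wild boar, against 12.3 to 21.7 in domestic pig and the mural and fibroblast sums 51.9 to 91.3 in wild boar, against 57.2 to 105 in domestic pig. On that scale only the red blood cell sums were without overlap. None of these markers was at 0 in all libraries. The sums of the microglial, astrocyte, oligodendrocyte and neuron markers overlapped between the groups. On rescaled TPM 1 of 7 neuron and 1 of 6 microglial markers passed as higher, and 0 of 6 astrocyte and 0 of 5 oligodendrocyte markers passed. The part of these cell types in the differences of NDUF genes was not tested, and fewer cells of a type and less RNA per cell cannot be told apart in such tissue samples.

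The NDUF genes were short. Their genomic span in the Sscrofa11.1 RefSeq annotation had a median of 7.11 kb over the 36 tested members, against 33.9 kb over the 9838 tested genes with a span. Across the 36 members Spearman's rho between span and rescaled log2 fold change was -0.45, so the shorter members tended to be the higher ones in wild boar. Across all genes with a span rho was -0.33. The genes share the same 6 libraries and are not independent, and the part of gene span in the differences was not tested. Between members' mean level and fold change rho was 0.09. The median SD between libraries of a group was 0.19 for members and 0.16 for all tested genes, in log2 units of rescaled TPM + 1.

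Circular RNAs (circRNAs), loops closed by back-splicing, were found inside 5 NDUF genes by position. Of the 11375 circRNAs deposited, 15 lay inside an NDUF gene of the RefSeq annotation, 5 each in NDUFV2 and NDUFS1, 2 each in NDUFA9 and NDUFAF7 and 1 in NDUFAF6. None of the 15 had another candidate host by position. The strands of circRNA and host gene were not compared. Of the 13 that were above 0 in at least 3 libraries 0 passed by limma, where 0.134% of the 9709 tested circRNAs did, and 4 had an unadjusted p under 0.05, against 14.5% of those tested. After median-ratio rescaling of circRNA TPM, an alternative added after seeing the data, 0 of the 13 had an unadjusted p under 0.05, and the median of all tested circRNAs was -0.10. Without rescaling, of the 13, 9 were below 0, against 74.3% of all tested circRNAs, whose median log2 fold change was -0.45.

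The most abundant was a circRNA of NDUFV2 (ssc_circ_342, chromosome 6, 98833466 to 98842928, minus strand). It had 1.33, 0.470 and 1.16 TPM in wild boar 1 to 3, against 1.37, 1.49 and 2.34 in domestic pig 1 to 3. All wild boar libraries were lower, wild boar 2 the most, and the difference did not pass (log2 fold change -0.86, SE 0.41, limma adjusted p = 0.339). Another NDUFV2 circRNA with the same right-hand end (ssc_circ_340, 98826750 to 98842928) had 0.165, 0.307 and 0.101 TPM in wild boar 1 to 3, against 0.515, 0.432 and 0.940 in domestic pig 1 to 3.

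For ssc_circ_340 the groups did not overlap either, with the lowest p of the 13 (log2 fold change -1.53, SE 0.51, limma adjusted p = 0.184). A circRNA of NDUFA9 (ssc_circ_9098, chromosome 5, 65766075 to 65770585, minus strand) had 0.103, 0.0640 and 0.127 TPM in wild boar 1 to 3, against 0.322, 0.360 and 0.196 in domestic pig 1 to 3. Its log2 fold change was -1.23 (limma adjusted p = 0.327), again without overlap and without passing. The NDUFS1 circRNAs were below 0.6 TPM in every library, the highest being ssc_circ_5177 with 0.215, 0.284 and 0.264 TPM in wild boar 1 to 3, against 0.399, 0.188 and 0.587 in domestic pig 1 to 3. The number of back-splice reads behind these levels is not known, so a circRNA at 0 is only listed at 0. The circRNAs described were chosen after their values were seen. The share of all tested circRNAs without overlap between the groups was not counted, and 74.3% of them were below 0. The lack of overlap is thus not shown to be particular to circRNAs of NDUF genes.

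**Figure D5:**
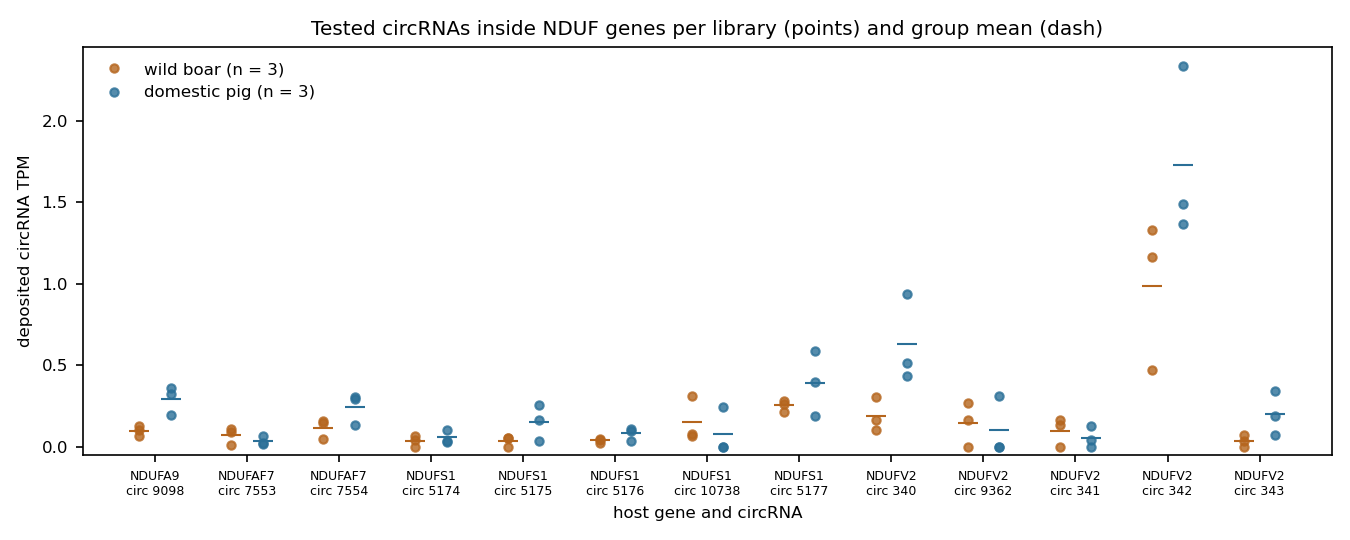
Deposited circRNA TPM (linear axis) of the 13 tested circRNAs inside NDUF genes, with 1 point per library and a dash at the group mean, wild boar left and domestic pig right. The NDUFV2 circRNA ssc_circ_342 stands highest, at 0.986 ± 0.455 TPM in the wild boar libraries and 1.73 ± 0.528 in those of domestic pig (SD, n = 3 each).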

How the data were processed

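The authors deposited a table of TPM per protein-coding gene and another of TPM per circRNA, with 1 column per library. The submitters' processing notes list STAR 2.6.0c and BWA 0.7.17, with no role given. The genome build, annotation and counter are not given in the sources used here, and the depth behind gene TPM is unknown. Gene symbols were looked up by Ensembl identifier. Genes were tested on log2(TPM + 1) with limma 3.58.1 (mean-variance trend, R 4.3.3) in an unpaired two-sided comparison of 3 wild boar libraries with 3 domestic pig libraries, and p-values were adjusted by Benjamini-Hochberg over all 11752 genes, after median-ratio rescaling and on deposited TPM beside it. Fold changes on this scale understate changes of low values. CircRNAs were tested without rescaling on log2(TPM + 0.045), and hosts were assigned by position; 99.3% of circRNAs lay inside a RefSeq gene, against 47.2% after a shift of 1000000 bases. The fit was tested on simulated data, in which 67, 67 and 66 of 11752 genes were given changes of 0.5, 1 and 2. These were far fewer than the 2295 genes that passed in the real data. Only genes of mean log2 value above 3 were changed, and noise was drawn independently for each gene and library. Genes given a true log2 change of 0.5 passed in the right direction in 17.9% of cases. For changes of 1 and 2 these shares were 70.1% and 98.5%. The shares in the real fit, and for members of low level, may be other than these. A gene that did not pass can still differ by about 0.5. The individual values of 1 member are not reported here. The members and lists were chosen with earlier results of these data known. Values in each library are given for every member passing on rescaled TPM and for the most abundant member of each subfamily, and for each other fixed list the up to 4 passing genes of lowest p are named. The remaining members, and genes named without passing, were added to that rule. Alternatives covered scaling, pseudocount, filter, trend, a replicate block and leaving out each library.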

Additional observations from a re-analysis of the deposited data

How the results depend on the processing

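The calls depended on the scaling. On deposited TPM 0 of 36 members passed, their median was -0.16, and 1 gene of the 7 other fixed respiratory lists passed, against 10 on rescaled TPM. Of all genes 188 passed there, against 2295 on rescaled TPM, 1250 with the replicate number as a block and 779 to 2165 with 1 library left out. NDUFAB1, NDUFB1, NDUFS5, NDUFV2 and SURF1 were at -0.0858, -0.0291, -0.29, -0.40 and -0.0083 there, below 0. With quantile normalization 11 members passed, the members' median was 0.26 and NDUFV2 was at -0.00071. With equal nuclear protein-coding sums, an alternative added after seeing the data, 8 members passed as higher and 1, NDUFAF7, as lower, the median was 0.23 and NDUFV2 was at -0.0038. Without the filter on low values 7 members and 3 genes of the other lists passed, and NDUFA4 was at 0.0129. A pseudocount of 0.1, a mean TPM of at least 5 and a fit without the trend gave 10, 11 and 9 passing members, all higher.

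With 1 library left out, 3 to 9 members passed, their median was 0.22 to 0.42, and 1 to 5 genes of the other lists passed. NDUFA4 ranged from -0.25 to 0.0928 and NDUFV2 from -0.0326 to 0.21. With 5 libraries the fit has fewer samples.

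With the replicate number as a block 8 members passed, 7 of them among the 10 (NDUFAB1, NDUFB8 and NDUFB11 did not, NDUFB2 did), and 2 genes of the other lists. The groups came from different source projects, so equal numbers were not taken as pairs. Deviations of same-numbered libraries from their group means correlated at 0.11, -0.07 and -0.16, and not every library correlated best with its own number. So few values, each centred within its group, cannot settle whether libraries were paired. Of the member circRNAs 0 passed under each of the 10 alternatives run for them, of which the rescaling of circRNA TPM was added after seeing the data. Other causes of these shifts were not tested.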
